A study of Mus musculus with 6 samples.

Results

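The Slit ligands, their Robo receptors and the srGAP proteins are encoded in the mouse by 10 genes: Slit1, Slit2 and Slit3, Robo1 to Robo4, and Srgap1 to Srgap3. They were taken by symbol from a table of read counts for 55471 genes in the hippocampus, and all 10 were present. Slits are large secreted proteins that steer growing axons and migrating cells away from their source, and Robo proteins are the single-pass membrane receptors that bind them. The srGAPs (Slit-Robo GTPase-activating proteins) bind the cytoplasmic tail of Robo and bend membranes through an F-BAR domain. In neurons some of these genes are also known for roles in dendrite shape, spine maturation and synapse number.

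RNA-seq was performed on whole hippocampus from 3 p300-ifKO mice and 3 control mice, all males of a C57BL/6 background (C57BL/6J in the methods) and of 3 to 6 months, with 1 library per mouse. In p300-ifKO mice (inducible forebrain knockout, Ep300_flox;Camk2a_creERT2), a Cre recombinase switched on by tamoxifen and driven by Camk2a recombines floxed Ep300, the gene of the lysine acetyltransferase p300, and leaves a truncated product without catalytic activity. Every mouse, control mice included, had been given tamoxifen by the intragastric route, in 5 doses of a corn oil solution at 20 mg/mL. By the protocol the controls were littermates lacking the driver, but the labels of all 3 control libraries list Camk2a_creERT2. Esr1, which lends its ligand binding domain to creERT2, had normalized counts of 87.2 to 109 in control mice and 2416 to 4217 in p300-ifKO mice, and Arsi, a neighbour of Camk2a, had 24.2 to 38.8 and 168 to 204, so that no control library came near the p300-ifKO level of either gene. Camk2a drives Cre in excitatory forebrain neurons, so interneurons, glia, vessels and meninges in the dissected tissue keep Ep300. In bulk RNA, fewer cells of a type and less RNA per cell cannot be told apart.

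Total counts were between 23151568 and 28433823 per library. Values below are normalized counts (reads on exons of a gene divided by the DESeq2 size factor of the library), and fold changes are DESeq2 log2 fold changes of p300-ifKO over control with their SE. Ep300 itself had normalized counts of 1545, 1474 and 2334 in control mice 1 to 3 and of 478, 1350.3 and 912 in p300-ifKO mice 1 to 3. The groups did not overlap, the log2 fold change was −0.97 (SE 0.33), and the adjusted p was 0.991 in DESeq2 (unadjusted p = 0.00369). The p300-ifKO mice were unlike each other: replicate 2 was the nearest to control for Ep300 and replicate 1 the farthest. The Spearman correlation across 17054 genes between exonic length and a library's deviation was −0.504, 0.415 and −0.276 in p300-ifKO mice 1 to 3, and 0.160 to 0.411 in control mice. All 8 marker lists of hippocampal and neighbouring cell types were detected in every library, the list for hippocampal excitatory neurons included.

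Across all genes, 2 of 32773 passed an adjusted p under 0.05 in DESeq2 (0.00610%), Esr1 and Arsi, and 432 had an unadjusted p under 0.05 (1.32%). Among the 10 Slit, Robo and srGAP genes, 0 passed, and 0 had an unadjusted p under 0.05. The edgeR quasi-likelihood test also called 2 genes in all and 0 of the 10, with 0 at an unadjusted p under 0.05. Counts of 9 of the 10 genes were lower on average in p300-ifKO and 1, Robo3, was higher, with a median log2 fold change of −0.22 beside −0.046 over all genes tested. With only the 17302 genes of at least 10 counts in at least 3 libraries, these medians were −0.23 and −0.0067. The share of all genes that were lower was not counted, here or beside the gene lists below.

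Slit2 and Slit3 each carry a microRNA in an intron, and its sequence is shown because it links the ligand loci to the receptor transcripts. Mir218-1 lies within Slit2 at chr5:48223942-48224051, after 21 of the gene's 46 exonic blocks, and Mir218-2 within Slit3 at chr11:35616816-35616925, after 15 of 37 (GRCm38, both on the plus strand and on the strand of the host gene). Both hairpins give the same 5′ arm and differ in the 3′ arm. In the mature sequences from RefSeq (GRCm38.p6), capitals mark the seed, bases 2 to 8, which is shared by the 5′ arms and differs between the 3′ arms.
mmu-miR-218-5p: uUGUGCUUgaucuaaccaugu
mmu-miR-218-1-3p: aAACAUGGuuccgucaagcacc
mmu-miR-218-2-3p: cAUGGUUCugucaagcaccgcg

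A match to the 5′ seed, the letters AAGCACA on the transcript strand, was present in the 3′ UTR of 6 of the 10 genes, against 14.8% of 21103 protein-coding genes. The median 3′ UTR of those genes was 1087 bases, and all 6 matching genes but Robo3 (736 bases) had a longer one, between 1733 and 4817 bases. Slit2 and Robo2 each held 2 matches, and Robo1, Robo3, Srgap2 and Srgap3 held 1. The windows around the match in the receptor transcripts, with capitals on the match, come from GENCODE transcripts, and for Robo2 the match nearest the stop codon is shown.
Robo1 3′ UTR, 986 bases after the stop codon: ttggttttaaAAGCACAatca
Robo2 3′ UTR, 461 bases after the stop codon: atttggtgatAAGCACAaatc
Robo3 3′ UTR, 647 bases after the stop codon: tgactcactgAAGCACActgt
The precursor genes themselves were at the limit of this assay. Mir218-1 had raw counts of 1, 0 and 1 in control mice and Mir218-2 had 1, 1 and 1, and both had 0 in each p300-ifKO mouse, which is under the floor of 3 counts, so no fold is given. Counts of a hairpin in an mRNA library do not measure the mature microRNA.

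Levels of different genes were compared per kilobase of exonic length in the control mice. Slit1 had 1290 ± 67.3 normalized counts per kilobase (SD, n = 3) and Srgap3 1215 ± 31.5, and the ranges of these 2 genes overlapped. By its mean over all 6 libraries Slit1 stood at the 95.1 percentile of the 17071 genes with a mean normalized count above 10. Srgap2 (223 ± 15.1) and Slit3 (221 ± 39.9) followed and were not separated from each other, and Robo2 (143 ± 11.7) and Robo3 (136 ± 4.83) were not separated either. Robo1 had 85.8 ± 9.46, Srgap1 54.8 ± 6.01, Slit2 52.2 ± 4.41 and Robo4 40.8 ± 5.72, of which Srgap1 and Slit2 overlapped. The order depends in part on which length is used, since the annotated exons of Slit2, Robo1 and Robo2 add up to far more than the longest coding transcript (25433 against 9960 bases for Slit2). With the coding transcript length, chosen after seeing the data, Slit2 stood at 133 ± 11.3 per kilobase and passed above Srgap1 (64.3 ± 7.05), and Robo2 (282 ± 23.1) stood level with Slit3 (257 ± 46.3).

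**Figure D1:**
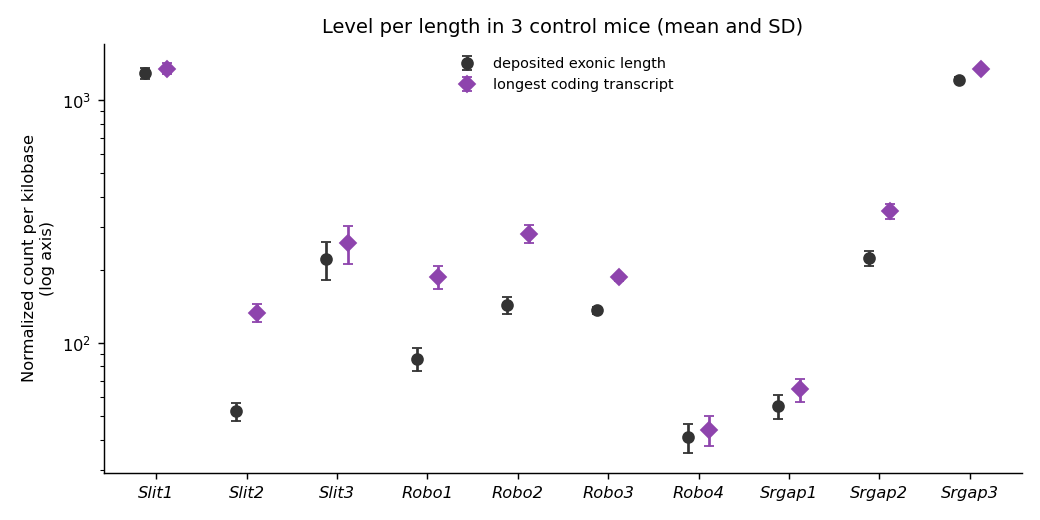
Normalized counts per kilobase (log axis) of the 10 genes in the 3 control mice, as mean and SD, with the exonic length of the deposited table (circles) and with the longest coding transcript (diamonds). Slit1 and Srgap3 stand apart at the top with either length, the other genes lie between 40.8 and 349, and Slit2, Robo1 and Robo2 move the most between the lengths.

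The Slit and srGAP families were each dominated by 1 gene. Slit1 made up 80.4% to 88.3% of the summed Slit level per kilobase in each of the 6 libraries, and Srgap3 80.5% to 83.3% of the srGAP level. With the coding transcript length these shares were 75.4% to 84.2% and 75.5% to 78.8%. The receptors were more even: in control mice Robo2 made up 35.2% ± 1.49 (SD, n = 3), Robo3 33.6% ± 1.38, Robo1 21.1% ± 1.42 and Robo4 10.1% ± 1.84. In p300-ifKO mice the Robo3 share was 40.6% ± 6.23 and ran from 32.3% to 46.9% over all libraries, and the ranges of the groups overlapped. With the coding transcript length the control shares were 40.3% for Robo2, 26.7% for Robo3, 26.7% for Robo1 and 6.29% for Robo4, so that Robo3 was level with Robo1 and not with Robo2.

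Among the ligands, Slit1 (ENSMUSG00000025020, chr19:41600257-41743665, minus strand) is the brain-enriched Slit. It had normalized counts of 7179.8, 7908 and 7824 in control mice and of 4912.5, 8732 and 6109 in p300-ifKO mice. The highest and the lowest library were both p300-ifKO, so the groups overlapped. The log2 fold change was −0.21 (SE 0.21, 95% interval −0.63 to 0.20, DESeq2 adjusted p = 0.991). Slit2 (ENSMUSG00000031558, chr5:47983138-48307733, plus strand), the ligand best known for midline repulsion together with Slit1, had 1382, 1199.8 and 1404 in control mice and 616, 1280.4 and 1020.3 in p300-ifKO mice. Replicates 1 and 3 of p300-ifKO lay under all control mice and replicate 2 lay within their range. Its log2 fold change was the farthest from 0 of the 10 genes, −0.45 (SE 0.25, 95% interval −0.94 to 0.039, DESeq2 adjusted p = 0.991, unadjusted p = 0.0712).

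Slit3 (ENSMUSG00000056427, chr11:35121224-35708507, plus strand), the ligand found most widely outside the nervous system, had 1233, 1176 and 1620.5 in control mice and 523, 1642 and 821 in p300-ifKO mice. It varied more than any other member: the coefficient of variation was 18.02% in control and 58.2% in p300-ifKO. The log2 fold change was −0.43 (SE 0.35, 95% interval −1.11 to 0.25, DESeq2 adjusted p = 0.991). Fibroblast and meningeal markers moved in the same direction as Slit2 and Slit3. All 7 of 7 listed genes were detected in every library and lower on average in p300-ifKO, 0 passed the test, their median log2 fold change was −0.46 and their summed normalized counts ran from 2431 to 4053 in control mice and from 1724 to 2716 in p300-ifKO mice. In control mice the sum was 3295, 2431 and 4053, the order of Slit2 and Slit3 (lowest in replicate 2, highest in replicate 3), and in p300-ifKO mice it was 1724, 2364 and 2716, lowest in replicate 1 as for both Slits but highest in replicate 3, where theirs was replicate 2. The other marker lists had median log2 fold changes from −0.099 (endothelium, 6 genes lower and 4 higher) to 0.26 (choroid plexus, 1 lower and 5 higher). The list for hippocampal excitatory neurons had 9 genes lower and 1 higher, with a median of −0.067. The part of fibroblasts and meningeal cells in the Slit values was not tested.

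**Figure D2:**
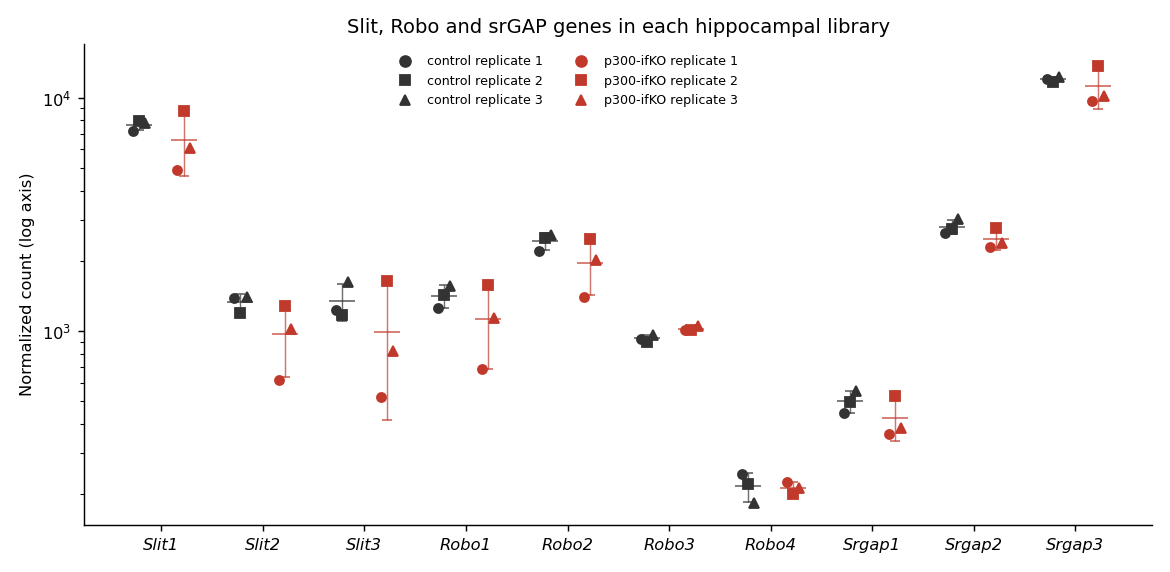
Normalized counts (log axis) of the 10 genes in each of the 6 libraries, with the mean and SD of each group of 3 mice; control is black, p300-ifKO is red and the symbol gives the replicate. Only for Robo3 do the red and black points not overlap, and the red points of the Slits, Robo1 and Robo2 are spread more widely than the black ones.

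Among the receptors, Robo1 and Robo2 bind Slits and carry most of the repulsive signal in axons. They lie 846 kb apart on chromosome 16 and on opposite strands. Robo1 (ENSMUSG00000022883, chr16:72308306-73046095) had 1256, 1429 and 1567 normalized counts in control mice and 686, 1575 and 1135 in p300-ifKO mice. Robo2 (ENSMUSG00000052516, chr16:73891839-74411825) had 2200.4, 2497 and 2578 in control mice and 1406, 2488 and 2008 in p300-ifKO mice. For both receptors replicates 1 and 3 of p300-ifKO were under every control mouse while replicate 2 lay near the highest control mice. The log2 fold changes were −0.32 (SE 0.27, 95% interval −0.85 to 0.21) for Robo1 and −0.30 (SE 0.21, 95% interval −0.72 to 0.12) for Robo2, each with a DESeq2 adjusted p of 0.991.

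Robo3, the divergent Robo that binds Nell2 and lets commissural axons reach the midline, differed from the other members. Robo3 (ENSMUSG00000032128, chr9:37415669-37433246, minus strand) had 929.7, 900.4 and 966 normalized counts in control mice and 1011, 1008 and 1057 in p300-ifKO mice. All 3 p300-ifKO mice were above all 3 control mice, in a narrow band: the coefficient of variation was 3.55% in control and 2.68% in p300-ifKO. The log2 fold change was 0.14 (SE 0.11, 95% interval −0.085 to 0.36), and it did not pass the test (DESeq2 adjusted p = 0.991, edgeR adjusted p = 0.745). It was the only 1 of the 10 genes whose groups did not overlap, while 7.46% of the 17071 genes with a mean normalized count above 10 had groups that did not overlap, so 1 of 10 is near that background. The Robo3 value lay between 0.12 and 0.17 in all 16 other settings tried, none of which called it.

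Robo4 is the Robo of endothelial cells, with a shorter extracellular part. Robo4 (ENSMUSG00000032125, chr9:37401897-37415115, plus strand) lies tail to tail with Robo3, 553 bases away and with no exonic overlap. It had 244, 222 and 184 normalized counts in control mice and 226, 201 and 212 in p300-ifKO mice, so the p300-ifKO values lay inside the control range. The log2 fold change was −0.023 (SE 0.18, 95% interval −0.39 to 0.34, DESeq2 adjusted p = 0.997). The 10 endothelial markers, all detected in every library and none called, summed to between 6583 and 7008 in control mice and between 6622 and 7047 in p300-ifKO mice. At these counts the interval of Robo4 still holds changes of up to 0.39 on the log2 scale in the lower direction.

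Within p300-ifKO the srGAP genes varied less than the Slits, with coefficients of variation of 10.6% to 20.7% against 29.7% to 58.2%. Srgap1 (ENSMUSG00000020121, chr10:121780991-122047315, minus strand), whose product acts mainly on Cdc42, had 447, 498 and 557 normalized counts in control mice and 364, 527 and 387 in p300-ifKO mice. Srgap2 (ENSMUSG00000026425, chr1:131285251-131527352, minus strand), known for setting the pace of spine maturation, had 2646, 2749 and 3014.5 in control mice and 2285.5, 2779 and 2377 in p300-ifKO mice. For both genes the p300-ifKO libraries 1 and 3 lay under every control mouse and library 2 lay among them. The log2 fold changes were −0.23 (SE 0.19, 95% interval −0.61 to 0.15) for Srgap1 and −0.18 (SE 0.13, 95% interval −0.44 to 0.086) for Srgap2, each with a DESeq2 adjusted p of 0.991. Of Srgap1, 131 exonic bases are shared on the same strand with the predicted gene Gm48804, a small part of its 9132 exonic bases.

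Srgap3, also named WRP for its binding to the actin regulator WAVE, was the most abundant srGAP. Srgap3 (ENSMUSG00000030257, chr6:112717971-112947266, minus strand) had 11982, 11656 and 12277 in control mice and 9665, 13685 and 10169 in p300-ifKO mice. Replicates 1 and 3 of p300-ifKO lay under the control range and replicate 2 above it, and the coefficient of variation went from 2.59% in control to 19.6% in p300-ifKO. The log2 fold change was −0.10 (SE 0.16, 95% interval −0.42 to 0.22, DESeq2 adjusted p = 0.991). A lincRNA on the opposite strand, Gm44081, overlaps 150 of its exonic bases, and as the strand setting of the counting is not stated, reads there cannot be assigned.

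The members shared an order of the libraries. For 8 of the 10 genes, all but Robo3 and Robo4, p300-ifKO replicate 1 was the lowest library and replicate 3 the second lowest, an order found in 21.4% of 17071 genes. For the same 8 genes the coefficient of variation was larger in p300-ifKO than in control, as it was for 78.7% of 12253 genes, whose median went from 7.07% to 14.6%. Replicate 2 of p300-ifKO was the highest of all 6 libraries for Slit1, Slit3, Robo1 and Srgap3, and for 16.1% of genes. Relative to the control mean, replicate 1 stood at −1.36 on the log2 scale for Slit3, −1.11 for Slit2, −1.05 for Robo1 and −0.79 for Robo2. Replicate 3 stood at −0.71, −0.38, −0.32 and −0.27 for these genes in turn, and replicate 2 at 0.29, −0.053, 0.15 and 0.037. Ep300 had the same order within p300-ifKO (−1.90, −0.97 and −0.40 for replicates 1, 3 and 2), and so had the length correlation of the libraries. How much of the order of the members goes with Ep300 and how much with the length trend cannot be told apart in 3 mice.

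**Figure D3:**
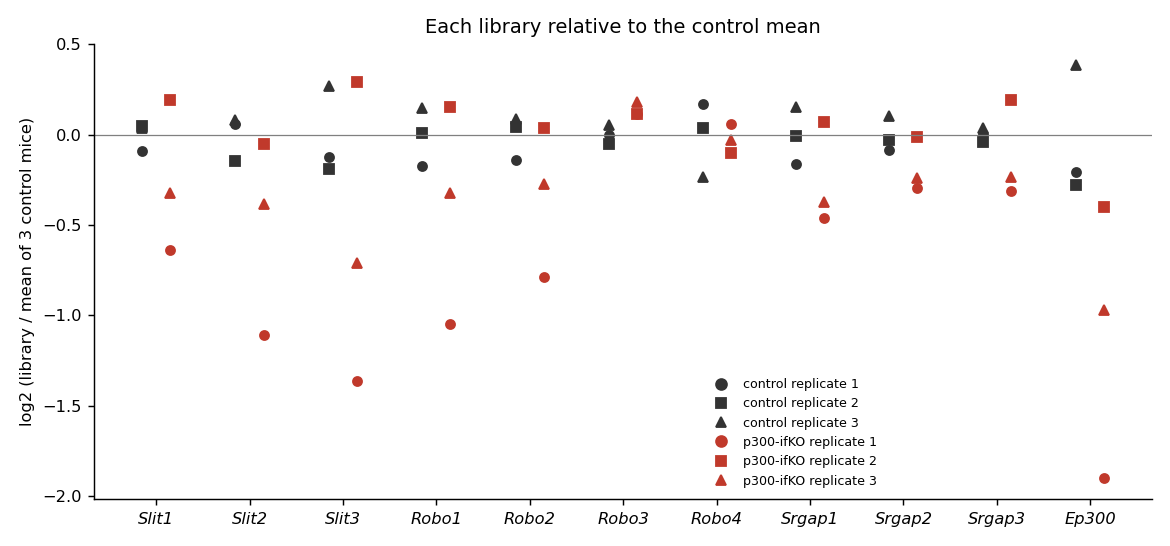
Normalized count of each library relative to the mean of the 3 control mice, on a log2 scale, for the 10 genes and Ep300; control is black, p300-ifKO is red and the symbol gives the replicate. The red circle (replicate 1) is lowest and the red triangle (replicate 3) the second lowest for 8 of the 10 genes and for Ep300.

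Because replicate 2 of p300-ifKO was the nearest to control for Ep300, the fit that leaves it out is given in full, among fits that left out each library in turn. Singling it out was a choice made after its values were seen, and the counts and p-values of this fit are descriptions. Without it, 926 of 11726 genes passed in DESeq2 (7.90%), and 5 of the 10 members did, all lower: Slit3 (−0.995, SE 0.21, adjusted p = 0.00343), Slit2 (−0.70, SE 0.20, adjusted p = 0.0257), Slit1 (−0.47, SE 0.14, adjusted p = 0.0267), Robo1 (−0.63, SE 0.21, adjusted p = 0.0378) and Robo2 (−0.50, SE 0.17, adjusted p = 0.0460). The 3 srGAPs did not pass, with −0.41 for Srgap1, −0.26 for Srgap2 and −0.27 for Srgap3 and adjusted p between 0.0943 and 0.145. Robo3 (0.15, adjusted p = 0.447) and Robo4 (0.019, adjusted p = 0.961) kept values near those of all 6 libraries. The same fit gave −1.36 for Ep300. As replicate 2 was left out for its Ep300 value, this value is no test of the knockout. The length correlation was negative in both p300-ifKO libraries kept (−0.504 and −0.276) and positive in every control library (0.160 to 0.411). In this fit a difference between the groups therefore cannot be told apart from the length trend. The length and GC offsets were not fitted without replicate 2. Without replicate 1 in place of replicate 2, 0 members passed in DESeq2, their median log2 fold change was −0.089, and Slit2 (−0.21) was the member farthest from 0.

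Fits with length and GC offsets or with a surrogate variable gave smaller values for most members. With a smooth offset for exonic length and GC content in each library, Robo2 went from −0.30 to −0.077, Srgap2 from −0.18 to −0.0014, Robo1 from −0.32 to −0.16 and Slit2 from −0.45 to −0.24. Slit1 (−0.22) and Slit3 (−0.42) kept their values, as did Robo3 (0.16), and Srgap3 took the opposite sign (0.025). With 1 surrogate variable in the model, 5 members were above 0 and 5 below, the Slits and Robo1 lay between −0.16 (Slit2) and 0.014 (Slit3), and Robo3 was at 0.15 (SE 0.10). Ep300 remained lower in both fits, at −0.82 with the offsets and −0.48 with the surrogate variable, against −0.97 in the main fit. The surrogate variable was −0.793, 0.309 and −0.141 in p300-ifKO mice 1 to 3, the order of Ep300, and 0.048 to 0.496 in control mice. What it took out of the member values therefore cannot be told apart from the strength of the knockout. In neither fit did DESeq2 call any of the 10 genes.

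**Figure D4:**
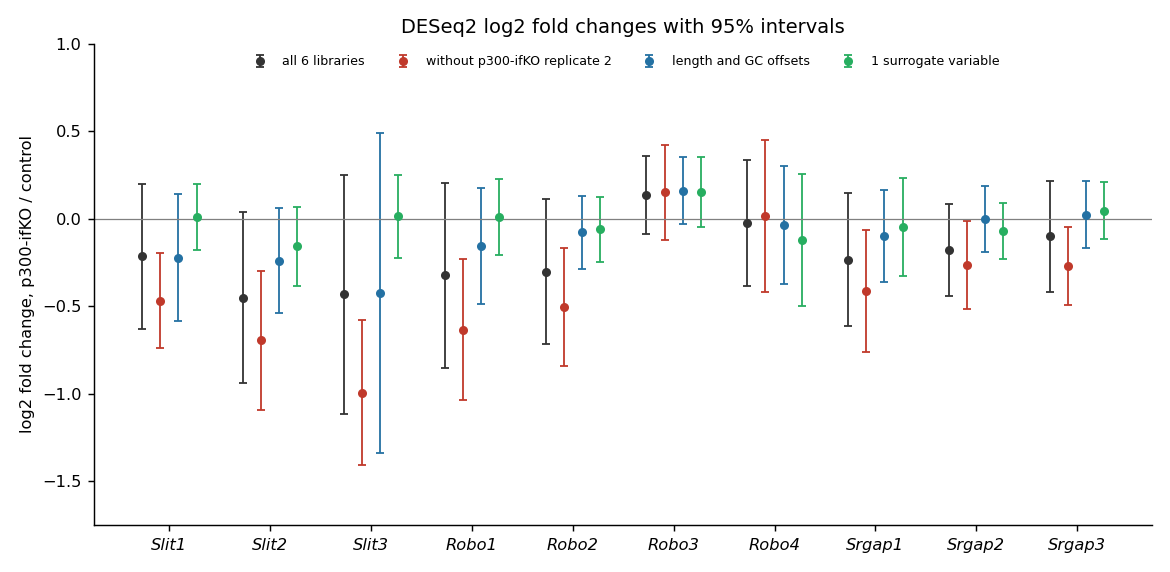
DESeq2 log2 fold change of p300-ifKO over control with its 95% interval for each of the 10 genes, with all 6 libraries (black), without p300-ifKO replicate 2 (red), with length and GC offsets (blue) and with 1 surrogate variable (green). The red intervals of 8 genes, all but Robo3 and Robo4, lie wholly below 0, while every black, blue and green interval includes 0. The intervals are not adjusted for the number of genes, and 5 of these 8 genes passed the adjusted test in the red fit. In that fit, chosen after its values were seen, 4091 of 32019 genes had an unadjusted p under 0.05 in DESeq2.

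Ratios between members of a family were compared within each library, where sequencing depth has no part. Slit1 reads were 5.20, 6.59 and 5.57 times those of Slit2 in control mice and 7.97, 6.82 and 5.99 times in p300-ifKO mice, a difference of 0.26 on the log2 scale (exact permutation test, two-sided, p = 0.2). With the length and GC offsets this difference was −0.0079. Slit3 and Slit2 were counted about equally, with ratios of 0.892 to 1.15 in control and 0.804 to 1.28 in p300-ifKO (difference −0.068, exact permutation p = 0.8). Robo1 had 0.571 to 0.608 times the reads of Robo2 in control and 0.488 to 0.633 in p300-ifKO (difference −0.062, exact permutation p = 0.7). The ratio of Srgap1 to Srgap3 was 0.0373 to 0.0454 in control and 0.0377 to 0.0385 in p300-ifKO (difference −0.13, exact permutation p = 0.4), and that of Srgap2 to Srgap3 was 0.221 to 0.246 and 0.203 to 0.236 (difference −0.063, exact permutation p = 0.6). The groups overlapped for all 5 ratios, each adjusted p was 0.8, and 3 mice against 3 cannot give a p below 0.1.

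**Figure D5:**
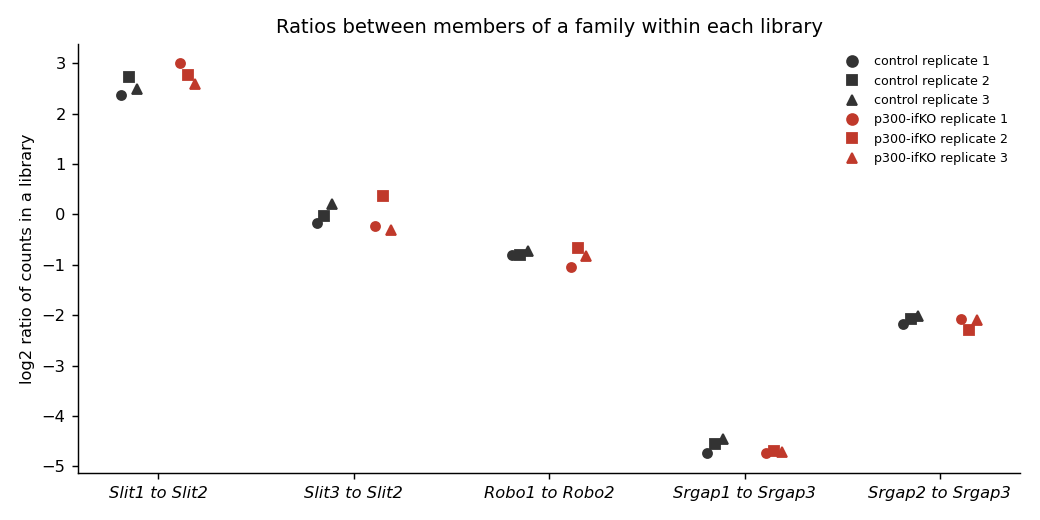
log2 ratio of the counts of 2 members of a family in each of the 6 libraries, for the 5 ratios compared; control is black, p300-ifKO is red and the symbol gives the replicate. Red and black points overlap for each ratio.

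The rest of the pathway was read from a list of 41 genes, 14 on the ligand and receptor side and 27 in the cytoplasm. None of the 41 was called by DESeq2 or by edgeR, and 2 had an unadjusted p under 0.05 in DESeq2 and 3 in edgeR. Of the 14 extracellular and membrane partners, such as heparan sulphate carriers that help Slit bind Robo and the netrin receptor Dcc, 12 were lower and 2 higher, with a median log2 fold change of −0.18. Of the 27 cytoplasmic genes, such as the Abl kinases, the Ena/VASP proteins and the deubiquitinase Usp33, 19 were lower and 8 higher, with a median of −0.081. The median of all 41 was −0.14 with all libraries, −0.22 without p300-ifKO replicate 2, −0.013 with the length and GC offsets and −0.016 with the surrogate variable.

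The 3 pathway genes with the smallest p were Cxcl12, Flrt3 and Dcc. Cxcl12, a chemokine on the ligand side of the list, had 1605, 1806 and 1805 in control mice and 1265, 1458 and 1463 in p300-ifKO mice (log2 fold change −0.32, SE 0.13, unadjusted p = 0.0139, DESeq2 adjusted p = 0.991). Flrt3, a membrane protein that binds Robo1, had 1231, 1080.0 and 1162 in control mice and 708, 1059.5 and 928 in p300-ifKO mice (−0.37, SE 0.18, unadjusted p = 0.0407, DESeq2 adjusted p = 0.991). Neither gene overlapped between the groups. The same held for Sdc1 and Ext1, which made 4 of the 14 ligand and receptor side genes, and for 0 of the 27 cytoplasmic genes. Among all 17071 genes with a mean normalized count above 10, 7.46% had groups that did not overlap, so 4 of the whole list of 41 is near that background. The difference between the sides of the list was not tested, and Sdc1 had a mean of only 20.0 normalized counts. Dcc, which Robo1 can bind to silence netrin attraction, did overlap, with 952, 1065 and 1098 in control mice and 682, 1029.5 and 747 in p300-ifKO mice (−0.34, SE 0.19, unadjusted p = 0.0703, DESeq2 adjusted p = 0.991). Without replicate 2 of p300-ifKO, Flrt3 (−0.50), Dcc (−0.54) and the Slit-binding plexin Plxna1 (−0.49) passed in DESeq2 and Cxcl12 (−0.35, adjusted p = 0.0867) did not. These 3 of 41 genes stand beside 7.90% of all genes in that fit, so the list was near the background.

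Genes with the most similar profile were listed for the member of each family with the highest mean level per kilobase of exonic length over all 6 libraries, as a description over 6 libraries that share the trend above. For Slit1 they were Kalrn, Grem1 and Wdr7 (Pearson r = 0.999, 0.998 and 0.997), and 2149 of 12252 genes had an r above 0.9. For Srgap3 they were Wipi1, Gm20045 and Eif4g3 (r = 0.997, 0.995 and 0.992), with 694 genes above 0.9. For Robo3, which by this mean was above Robo2 (143 against 129) although Robo2 was the higher in the control means, they were Tor3a, Bnip2 and Zc3hav1 (r = 0.976, 0.974 and 0.974), with 30 genes above 0.9. How many unrelated genes would pass an r of 0.9 over 6 libraries was not computed. Robo3 also varied little, with a coefficient of variation of 3.55% in control and 2.68% in p300-ifKO. The small count for Robo3 is therefore not read as a trait of that gene.

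Promoter windows of 300 bases (250 before and 50 after the start) were in the RefSeq table (GRCm38.p6) for 9 of the 10 genes, in 11 windows. The cAMP response element TGACGTCA, the site of CREB, which recruits p300, was in 0 of the 11 windows and in 1.79% of 32851 windows of all genes, counting either strand. The letters TATAAA were in the windows of Slit2 and Srgap3 and in 13.6% of all windows. GC boxes (GGGCGG on either strand) were in those of Slit2, Slit3, Robo3, Srgap1, Srgap2 and Srgap3 and in 35.7% of all windows. The windows of Slit2, the member with the fold change farthest from 0 below, and of Robo3, the only 1 above it, are shown 5′ to 3′ along the gene, with capitals on GC boxes and TATAAA.
Slit2 promoter, chr5:47982905-47983204, plus strand: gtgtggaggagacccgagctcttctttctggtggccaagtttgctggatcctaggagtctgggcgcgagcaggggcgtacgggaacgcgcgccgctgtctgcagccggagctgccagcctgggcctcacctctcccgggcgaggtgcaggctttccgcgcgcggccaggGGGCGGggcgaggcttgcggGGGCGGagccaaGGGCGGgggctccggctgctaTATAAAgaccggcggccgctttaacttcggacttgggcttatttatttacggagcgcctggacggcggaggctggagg
Robo3 promoter, chr9:37433126-37433425, minus strand: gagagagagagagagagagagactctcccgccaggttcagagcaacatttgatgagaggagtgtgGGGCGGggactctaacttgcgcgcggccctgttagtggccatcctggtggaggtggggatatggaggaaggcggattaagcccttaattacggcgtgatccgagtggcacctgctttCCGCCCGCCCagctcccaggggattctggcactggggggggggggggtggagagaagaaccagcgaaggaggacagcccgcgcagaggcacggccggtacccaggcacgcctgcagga
The Slit2 window had a GC content of 68.0% and the Robo3 window 63.3%, against a median of 52.7%. That of Robo4, at 50.3%, was the window with the lowest ratio of observed to expected CpG, 0.106, beside a median of 0.384 over all genes.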

How the data were processed

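The deposited values are raw read counts for each gene. Per the labels and methods, the authors checked single-end 50 bp reads with FastQC (0.11.8), trimmed them with Trim Galore (0.6.4), aligned them with STAR (2.6.1) to GRCm38 (mm10), kept reads with a mapping quality above a limit and used Rsubread to count the exonic reads of Ensembl genes, without stating whether strand was used. Reads with several matches are lost. At most 1.45% of the 50-base exonic stretches of a member recurred exactly in an annotated transcript of another gene. Inexact copies, repeats within a gene and copies outside annotated transcripts were not counted, so the share of reads lost is not known. No per-sample column was left unused.

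Groups and replicate numbers came from the sample titles. Labels do not tie same-numbered mice to a litter or batch. Of the table's identifiers, 55230 (99.57%) matched GENCODE M21, the source of symbols, coordinates and GC content. The counts were compared with DESeq2 (1.42.0, R 4.3.3; the methods name this tool, the labels version 1.30.1) by a two-sided Wald test without covariates, Benjamini-Hochberg adjustment over 32773 genes and a threshold of 0.05. edgeR (4.0.16) with a quasi-likelihood test stood beside it. Alternatives used limma-voom (3.58.1), TMM factors, a filter of 10 counts in 3 libraries, a replicate block, 1 surrogate variable (sva 3.50.0), smooth length and GC offsets (mgcv 1.9.3) and leaving out each library. Family ratios were compared by exact permutation, adjusted over 5. Scripts were tested on simulated data. Named genes were the members (Esr1 and Arsi were added after their values were seen), Ep300, called pathway genes or else the 3 with the smallest p, the microRNA genes and the 3 genes most similar to the member of each family with the highest mean per kilobase of exonic length over all 6 libraries. The genes, lists and tests were chosen with earlier results of these data known.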

Additional observations from a re-analysis of the deposited data

How the results depend on the processing

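Of 274 values recomputed under another setting, 243 were rated the same. Fold changes were rated by direction and side of the threshold, and family ratios by direction alone. Numbers of called genes and levels per kilobase were rated by closeness to the main value. The number of genes called was 2, or 4 with a replicate block, 3 with 1 surrogate variable (the gained call was Ep300, adjusted p = 0.00127 in DESeq2), and 2 to 926 when 1 library was left out. Leaving out 1 library gave 0 to 5 members called and 0 to 3 pathway genes, all of the nonzero counts from the fit without p300-ifKO replicate 2. Ep300 was −1.36 to −0.66 across those fits and −0.48 with 1 surrogate variable. That variable turned the direction of Slit1 (0.0092), Slit3 (0.014), Robo1 (0.011) and Srgap3 (0.047), and the length and GC offsets that of Srgap3 (0.025). Robo4 ran from −0.13 to 0.073 when a library was left out. The offsets turned the Slit1 to Slit2 ratio (−0.0079 in place of 0.26), and leaving out a library gave −0.28 to 0.057 for Slit3 to Slit2, −0.15 to 0.036 for Robo1 to Robo2 and −0.10 to 0.0078 for Srgap2 to Srgap3. The causes were not tested.

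The library names use the same numbers in the control and p300-ifKO groups, but whether same-numbered mice were paired is not stated. The correlation of their deviations from the group means was 0.27, −0.28 and 0.13 for replicates 1 to 3 over 17071 genes. These 3 values cannot show or exclude a pairing. The replicate block called 0 members and changed no call of a pathway gene or of Ep300. With it, the DESeq2 unadjusted p of Ep300 went from 0.00369 to 2.04e-05 and the adjusted p from 0.991 to 0.134. With 3 mice a group, the narrowest 95% interval of a member ran from −0.085 to 0.36 (Robo3) and the widest from −1.11 to 0.25 (Slit3) on the log2 scale.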
